A study of Mus musculus with 8 samples.

Results

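Proliferation was followed here through 44 cell cycle genes, taken by symbol from the 24619 gene entries counted in the series. They were described in 3 groups. There were 15 genes of G1/S and S phase, 23 genes of G2/M, and 6 genes for D cyclins and cyclin-dependent kinase (CDK) inhibitors. All 44 genes were found once each, and all 44 passed the filter on low counts in both assays. The cells were primary kidney glomerular mesangial cells (MMC) of C57BL/6J mice, either WT or carrying a CRISPR-Cas9 nickase deletion at miR-379 (miR-379KO), grown without treatment in RPMI 1640 medium with foetal bovine serum at 10%. Sequenced were total RNA and the RNA that beads against AGO2 pulled down (AGO2-IP), in 2 replicates per genotype and assay, named A and B. AGO2 binds microRNAs and, through them, messenger RNAs. The deletion is in the germline, so the cells lacked miR-379 before they were put in culture. Nothing in the labels ties a letter to one animal, so the p-values below measure the spread between these samples, which may be technical.

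A cell that enters the cycle first makes D cyclins, whose kinases inactivate the retinoblastoma protein and release E2F factors. E2F factors switch on the genes for DNA replication, such as the MCM helicase subunits, the sliding clamp Pcna and the enzymes that make nucleotides. Genes for mitosis follow, and many of them are held down in G1 through a promoter element called the cell cycle genes homology region (CHR), often next to CCAAT boxes. CDK inhibitors such as Cdkn1a (p21) and the products of Cdkn2a and Cdkn2b stop this program. In the glomerulus, mesangial cells are known to divide little in health and to divide in culture.

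The promoters of the members carried these elements. Windows from 250 bases before to 50 bases after the start site were taken from RefSeq (GRCm38.p6) and were found for 13 of the S phase genes, 18 of the G2/M genes and 4 of the remaining group. Windows for Aurkb, Ccna2, Cdc25c, Kif20a, Tpx2, Ccne2, Mcm4, Ccnd1 and Ccnd2 were not used here. Both strands were searched for TTTGAA (CHR), CCAAT, and TTTCCCGC or TTTGGCGC (E2F) and each motif was searched on its own, so motifs could share letters. The CHR letters were in 13 of 18 G2/M windows (72.2%) and in 20.2% of the windows of all 27025 genes, and CCAAT was in 88.9% and 41.1%. E2F letters were in 6 of 13 S phase windows (46.2%) and in 1.8% of all windows, and in 0 of 18 G2/M windows. A match is a description of letters and not a bound site. The windows of the G2/M genes Plk1 (chr7:122159185-122159484, + strand) and Cdc20 (chr4:118437294-118437593, − strand) and of the S phase gene Mcm5 (chr8:75109259-75109558, + strand) are shown because these genes recur below. Capitals mark the searched letters on either strand.
Plk1: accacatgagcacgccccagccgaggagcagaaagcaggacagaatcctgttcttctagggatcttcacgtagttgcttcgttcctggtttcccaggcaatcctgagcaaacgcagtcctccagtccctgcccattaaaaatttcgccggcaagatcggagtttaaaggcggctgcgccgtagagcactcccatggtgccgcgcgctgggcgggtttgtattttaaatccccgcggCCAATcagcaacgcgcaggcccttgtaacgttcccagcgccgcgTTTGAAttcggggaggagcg
Cdc20: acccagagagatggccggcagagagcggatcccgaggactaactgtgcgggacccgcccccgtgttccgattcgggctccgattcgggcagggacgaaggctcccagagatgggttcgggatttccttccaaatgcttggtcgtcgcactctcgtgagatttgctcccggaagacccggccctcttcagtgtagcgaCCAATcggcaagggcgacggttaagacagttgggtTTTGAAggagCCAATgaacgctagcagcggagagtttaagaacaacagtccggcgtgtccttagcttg
Mcm5: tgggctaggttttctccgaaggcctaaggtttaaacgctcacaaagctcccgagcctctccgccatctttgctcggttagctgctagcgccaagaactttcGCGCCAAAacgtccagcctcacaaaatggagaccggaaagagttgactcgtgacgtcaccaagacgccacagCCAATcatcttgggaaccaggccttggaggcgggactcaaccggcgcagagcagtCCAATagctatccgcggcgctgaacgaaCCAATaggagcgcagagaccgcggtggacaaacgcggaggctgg

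The members were also searched for the seed match of the deleted microRNA. Mature mmu-miR-379-5p, with the seed (bases 2 to 8) in capitals, is shown with the single match found in a member.
mmu-miR-379-5p: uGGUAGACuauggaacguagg
Cdkn1a: tcctggtctggactGTCTACCct
The match lies in the 3′-UTR of Cdkn1a on the + strand of chromosome 17, from 29100564 to 29100570 (GRCm38.p6), with the seed match in capitals. Thus 1 of 44 members (2.27%) held GTCTACC in the longest annotated 3′-UTR, compared to 4.06% of 19140 entries with a 3′-UTR. For miR-379-3p (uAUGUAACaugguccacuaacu) the match GTTACAT was in Bub1b and Top2a (4.55% of members, compared to 6.9% of entries). Neither share of the members was above that of all entries, and Cdkn1a, Bub1b and Top2a are given in both assays below.

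Total RNA libraries held 17168113 to 22660600 gene counts, which put 161 to 39690 counts on a member. AGO2-IP libraries held 5587494 to 17094958, but only 1115665 to 1874974 outside the ribosomal precursor entry Rn45s and the entry Lars2, which left a median of 36.5 to 72 counts per member. Of 9 mesangial markers 8 passed the filter, with a summed level of 11330 to 15060 CPM (counts scaled to the size of the library) in WT and 16910 to 17920 CPM in miR-379KO. Levels in CPM were scaled within each assay and are not comparable between assays. Most of that sum came from the contractile genes Acta2 (6885 to 10700 CPM) and Tagln (4019 to 6825 CPM), whereas Itga8 (0.383 to 2.27 CPM), Gata3 (1.97 to 3.76 CPM) and Myh11 (1.48 to 3.83 CPM) were low and Thy1 was under 10 counts in each library. The higher sum in miR-379KO is given as a measured value, and its part in the results below was not tested. The podocyte marker Nphs1 was under 10 counts in every total RNA library, the podocyte-listed genes Synpo, Podxl and Plce1 summed to 212 to 537 CPM, and 4 of 5 endothelial markers were under 10 counts. Macrophage markers summed to at most 12 CPM and tubule markers to at most 26.9 CPM, with Ptprc, Adgre1, Umod and Epcam under 10 counts.

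Cell cycle genes did not differ in total RNA between the genotypes beyond the spread of the replicates. Of the 44 members 0 were called, also in DESeq2, and 0 had an unadjusted p under 0.05 in edgeR, against 91 of all 12318 genes tested (104 in DESeq2 and 89 in voom). Over all genes 0 were called (0%), and the cutoff of the study's methods (fold change over 1.5 with an unadjusted p under 0.05) was passed by 0.682% of all genes and by 0 members. The 2 miR-379KO libraries differed from each other in these genes. Genes of S phase and of G2/M were higher in miR-379KO B than in miR-379KO A without exception, and the D cyclins and CDK inhibitors went the other way. In bulk RNA more cycling cells and more RNA per cycling cell cannot be told apart.

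S phase genes lay highest in 1 library. Mcm2, a subunit of the replicative helicase, stood at 58.8 and 64.5 CPM in WT A and B and at 55 and 89.4 CPM in miR-379KO A and B. Mcm5, another subunit, stood at 38.5 and 57 CPM in WT and at 41.5 and 105 CPM in miR-379KO. Values for Pcna were 87.9 and 88.2 CPM in WT and 86.1 and 126 CPM in miR-379KO. In all 3 genes miR-379KO A was near the WT libraries or below them, and miR-379KO B was above. Rrm2, a subunit of ribonucleotide reductase, which makes deoxynucleotides, had 122 and 96.6 CPM in WT and 90.1 and 147 CPM in miR-379KO, and its groups overlapped. The licensing factor Cdt1, which helps to load the helicase, had 10.3 and 11.2 CPM in WT and 9.61 and 21.4 CPM in miR-379KO. Among S phase genes 14 of 15 were highest in miR-379KO B, and the exception was the transcription factor E2f1, with 35.2 and 18.6 CPM in WT and 27 and 27.6 CPM in miR-379KO. In WT the widest gaps of S phase genes were in E2f1 (1.89-fold), Tyms (1.69-fold) and Mcm7 (1.5-fold), and Mcm7, a helicase subunit, stood at 61.6 and 92.4 CPM in WT and at 64 and 120 CPM in miR-379KO.

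As a result the S phase genes had positive differences that the test did not call. All 15 log2 differences of miR-379KO from WT were above 0, with a median of 0.23 and a range of 0.02 to 0.62. Mcm5 had the smallest p among them (log2 difference of 0.62 ± 0.46 (SE), n = 2 per group, edgeR adjusted p = 0.9997), followed by Cdt1 (0.53 ± 0.40, edgeR adjusted p = 0.9997). Leaving out miR-379KO B turned the median to −0.16, and leaving out miR-379KO A raised it to 0.52. The sign of the S phase median therefore rested on which miR-379KO library was kept. Summed over the 15 genes, WT A and B stood at 999 and 983 CPM, miR-379KO A at 886 and miR-379KO B at 1429 CPM.

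**Figure D1:**
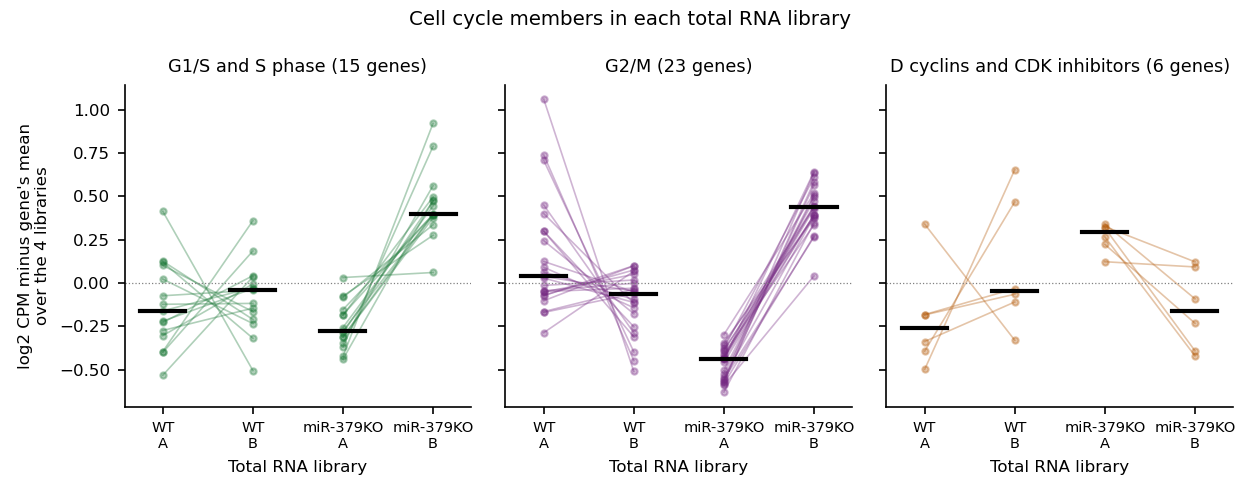
Level of each of the 44 members in the 4 total RNA libraries, as log2 CPM minus the gene's mean over the 4 libraries, in 3 panels for the 15 genes of G1/S and S phase, the 23 genes of G2/M and the 6 D cyclins and CDK inhibitors. Points are genes, thin lines join the replicates of a genotype and black bars are medians. All S phase and G2/M lines rise from miR-379KO A to miR-379KO B, and all lines of the third panel fall.

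Mitotic genes separated the miR-379KO libraries. All 23 G2/M genes were lowest in miR-379KO A among the 4 libraries, and 18 were highest in miR-379KO B. Cdk1, the kinase that drives mitosis, stood at 74.8 and 80.7 CPM in WT and at 64.8 and 128 CPM in miR-379KO. Its partner cyclin B1 (Ccnb1) stood at 74.7 and 70.4 CPM in WT and at 54 and 98.8 CPM in miR-379KO. Both genes thus had WT values between the 2 miR-379KO values. Top2a, the topoisomerase that untangles chromosomes, had 264 and 180 CPM in WT and 158 and 282 CPM in miR-379KO. The largest gap among G2/M genes in miR-379KO was in Cenpa, the centromeric histone, with 23.4 CPM in A and 53.5 CPM in B, a 2.29-fold difference, and those of Bub1 (24.8 and 55.2 CPM) and Cdc25c (7 and 15.4 CPM) were 2.23-fold and 2.2-fold. WT A and B differed less in Cenpa (33.2 and 33.7 CPM) and Cdc25c (9.9 and 11 CPM), whereas Bub1 stood at 45.3 and 29.7 CPM.

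The genotype difference of G2/M genes was near 0. Their median log2 difference was 0.07, with 15 genes above 0 and 8 below and a range of −0.72 to 0.31. Without miR-379KO B the median was −0.48, and without miR-379KO A it was 0.47. The summed level of the 23 genes was 1846 and 1408 CPM in WT and 1125 and 2060 CPM in miR-379KO, so the groups overlapped. For comparison, the median log2 ratio of A over B in miR-379KO was −0.69 over S phase genes and −0.86 over G2/M genes, and 4.14% of all 12318 genes differed at least 2-fold between these libraries. Between WT A and B more genes differed at least 2-fold (9.12%), while the medians were −0.13 over S phase genes and 0.14 over G2/M genes.

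Mki67 (Ki-67, the common marker of dividing cells), Cenpf and Cenpe (kinetochore proteins) had the widest gaps between WT replicates among G2/M genes. Mki67 stood at 275 and 128 CPM in WT A and B and at 112 and 203 CPM in miR-379KO A and B. Cenpf stood at 103 and 34.7 CPM in WT and at 32.8 and 50.9 CPM in miR-379KO, and Cenpe at 104 and 45.5 CPM in WT and at 42.2 and 74.7 CPM in miR-379KO. In each of the 3 genes WT A was the highest library, 2.15-fold, 2.97-fold and 2.28-fold above WT B. WT A was also highest in the mitotic kinesins Kif11 (WT values of 63.9 and 38.3 CPM against 32.1 and 61 CPM) and Kif23 (80.6 and 56.3 CPM against 39.5 and 77.7 CPM), which are named here after their values were seen. Among members below 0, Mki67, Cenpf and Cenpe had the smallest p, with differences of −0.35 ± 0.44, −0.72 ± 0.52 and −0.35 ± 0.45 on the log2 scale (edgeR adjusted p = 0.9997 for each). Without WT A these differences were 0.31, 0.27 and 0.36, and without miR-379KO A those of Mki67 and Cenpe were 0.04 and 0.03, so their sign was not stable. Mki67, Cenpf and Cenpe also had the longest exons of the members, with 10075, 11130 and 7813 bases. Over all tested genes WT A exceeded WT B by a median log2 ratio of 0.49 for exons over 7000 bases (1180 genes) and lay below it, at −0.32, for 1000 to 2000 bases (2415 genes). In miR-379KO the same medians were 0.07 and −0.09. Across the 44 members the ratio of WT A over WT B had a Spearman rho of 0.47 with exon length and of −0.64 with GC content, and that of miR-379KO A over B had −0.03 and 0.17, given as descriptions of genes that share libraries. The part of length or RNA quality in these values was not tested.

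**Figure D2:**
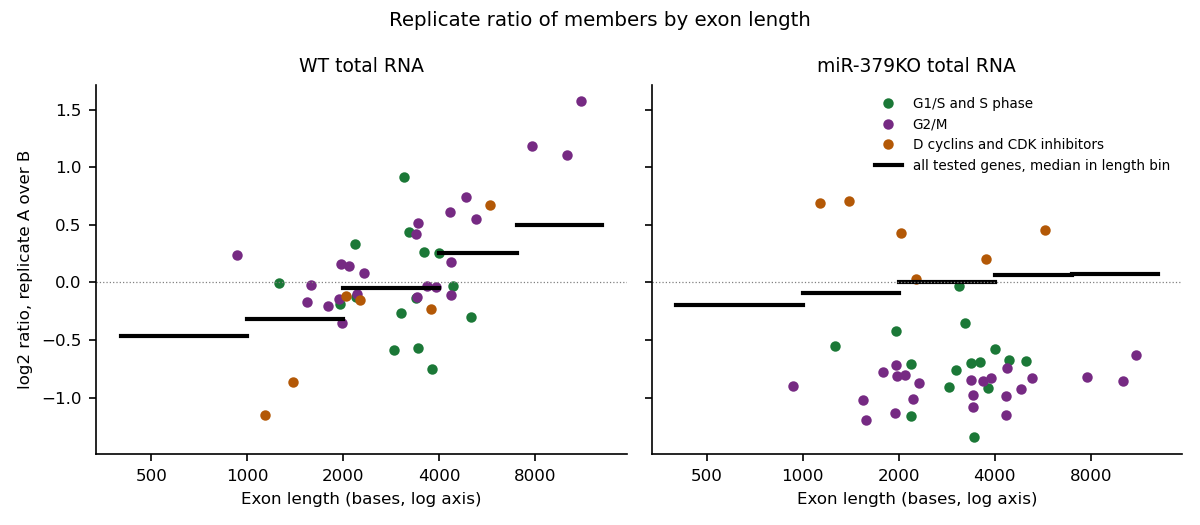
Log2 ratio of replicate A over B in total RNA for each member against its exon length (bases, log axis), in WT (left) and miR-379KO (right), with black lines for the median of all tested genes in 5 length classes. In WT the ratio rises with length in all genes and the 3 longest members lie on top, while in miR-379KO the S phase and G2/M genes lie below 0 at every length.

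In miR-379KO the D cyclins, which start the cycle, and the CDK inhibitors, which hold it back, were both higher in A than in B, opposite to the mitotic genes. In WT the direction was mixed, with A above B in 13 of 23 G2/M genes and in 1 of the 6 cyclin and inhibitor genes. Cdkn2a, whose locus encodes p16 and p19Arf, stood at 30.5 and 67.9 CPM in WT and at 51.9 and 32.3 CPM in miR-379KO. Cdkn2b, which encodes p15, stood at 27.6 and 50.1 CPM in WT and at 45.1 and 27.6 CPM in miR-379KO. Both were high in WT B and miR-379KO A and low in WT A and miR-379KO B, so neither differed by genotype (log2 difference of −0.23 ± 0.43 and −0.09 ± 0.37, edgeR adjusted p = 0.9997 for both). Cdkn1a had 454 and 493 CPM in WT and 653 and 484 CPM in miR-379KO, and its groups overlapped. In all 6 genes of this group miR-379KO A exceeded miR-379KO B, with a median log2 ratio of 0.44. Ccnd2 was the most abundant member by CPM and had 1872 and 1176 CPM in WT and 1726 and 1259 CPM in miR-379KO, with A above B in both genotypes.

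D cyclins gave the only members whose replicates did not overlap between genotypes. Cyclin D1 (Ccnd1) stood at 175 and 205 CPM in WT and at 277 and 240 CPM in miR-379KO. Its log2 difference was 0.45 ± 0.22 (unadjusted p = 0.092, edgeR adjusted p = 0.9997), and it stayed between 0.34 and 0.57 when each replicate was left out. Ccnd3 stood at 90.1 and 99.9 CPM in WT and at 111 and 109 CPM in miR-379KO (0.21 ± 0.20). Thus 2 of 44 members were higher without overlap and 0 were lower, compared to 9.9% and 9.07% of all tested genes. Per kilobase of exon the cyclins and inhibitors were also the most abundant group, with a median of 46.8 CPM per kilobase in WT, compared to 18.3 for S phase genes and 20 for G2/M genes. The range ran from 2.22 for Cdc6 to 264 for Ccnd2 in WT, and from 2.82 for Cdc6 to 279 for Cdkn1a in miR-379KO.

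S phase and G2/M genes outside the members were also mostly highest in miR-379KO B. Among 31 other S phase genes 27 were highest in miR-379KO B, and among 32 other G2/M genes 22 were. Their summed levels were 586 and 938 CPM in miR-379KO A and B for S phase and 1532 and 2415 CPM for G2/M. By genotype 0 of 31, 0 of 32, 0 of 24 other G1 regulators and 0 of 15 p53 targets were called in total RNA. The genes with the smallest p were Gins2 (0.54 ± 0.33) and Chaf1b (0.46 ± 0.35) upward and Casp8ap2 (−0.34 ± 0.33) and Atad2 (−0.20 ± 0.39) downward in S phase. In G2/M they were Tacc3 (0.27 ± 0.31), Cks1b (0.22 ± 0.37), Cbx5 (−0.19 ± 0.27) and Gas2l3 (−0.30 ± 0.47). Of the G1 regulators, they were Tfdp1 (0.29 ± 0.26), E2f6 (0.22 ± 0.21), Cdkn1c (−0.68 ± 0.66) and Cdk6 (−0.36 ± 0.35). For p53 targets, Btg2 (0.96 ± 0.48) and Plk2 (0.61 ± 0.32) lay above 0 and Trp53inp1 (−0.57 ± 0.30) and Pmaip1 (−0.45 ± 0.41) below. None of these differences passed the test.

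In AGO2-IP more cell cycle transcripts were lower than higher in miR-379KO. In edgeR 9 members were called lower and 1 higher, and the lower calls were 0 in DESeq2 and 2 with all 8 libraries in 1 fit. Of the 23 G2/M genes 7 were lower (Plk1, Cdc20, Kif20a, Mki67, Cenpf, Tpx2 and Bub1b) and 0 higher, with a median log2 difference of −0.56 and 21 of 23 below 0. Of the S phase genes Mcm7 was lower and Tyms higher, with a median of −0.34, and Cdkn1a was the 1 of 6 cyclin and inhibitor genes that was lower, with a median of −0.43. Over all 13500 genes tested 9.42% were called lower and 21.4% higher. Among genes with a mean over 1000 counts in total RNA, 26% of all genes and 29.2% of members were called lower. Between 100 and 1000 counts these shares were 5.13% and 10%. The difference between the 3 groups of members was not tested. Cell type markers moved in the same comparison. Of the mesangial markers 3 of 8 tested were lower and 1 higher (median −0.77, summed level of 960.2 and 1216 CPM in WT and 761.7 and 471 CPM in miR-379KO). Tubule markers were higher in 4 of 4 tested (median 1.96, 6.17 and 7.05 CPM against 18.7 and 22.4 CPM), macrophage markers in 1 of 3 (median 1.31, 2.55 and 2.78 CPM against 7.63 and 10.7 CPM), podocyte markers in 2 of 4 (57.3 and 19.1 CPM against 51.4 and 28 CPM) and the 1 endothelial marker tested, Kdr, was higher (1.34). Medians in total RNA were −0.30 for tubule (2 tested), −0.49 for macrophage (3 tested), 0.04 for podocyte and 0.15 for mesangial markers, and 0 were called. Of all genes with a mean under 100 counts in total RNA, 66.7% were called higher in AGO2-IP. The part of the markers, or of counts near background, in the members' change was not tested.

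Plk1, the kinase that triggers entry into mitosis, had 81 and 54 counts in the WT AGO2-IP libraries and 23 and 24 counts in miR-379KO. These equal 7.93 and 6.25 CPM for WT against 2.7 and 3.07 CPM for miR-379KO, with no overlap and a log2 difference of −1.30 ± 0.29 (edgeR adjusted p = 0.0025). Cdc20, which activates the ubiquitin ligase of anaphase, fell from 8.03 and 7.75 CPM to 3.76 and 3.2 CPM (−1.18 ± 0.28, edgeR adjusted p = 0.0032). In both genes each WT value lay above each miR-379KO value. Kif20a, a kinesin of cytokinesis, had 13.5 and 11.3 CPM in WT and 7.04 and 7.29 CPM in miR-379KO (−0.80 ± 0.24, edgeR adjusted p = 0.014), and Mki67 had 73.3 and 67.5 CPM in WT and 23.6 and 49.9 CPM in miR-379KO (−0.94 ± 0.30, edgeR adjusted p = 0.022). Of the other G2/M genes that fell, Cenpf had 338 and 185 counts (WT) against 101 and 149 (miR-379KO). Counts were 123 and 123 against 62 and 71 for Tpx2, a spindle assembly factor, and 86 and 72 against 40 and 45 for the checkpoint kinase Bub1b. Mcm7 fell from 86 and 109 counts to 47 and 56. In total RNA the WT values of Plk1 and Cdc20 lay between the miR-379KO values. Plk1 had 55.9 and 60 CPM in WT and 40.9 and 82.4 CPM in miR-379KO, and Cdc20 had 70.8 and 81.4 CPM and 58.2 and 99.6 CPM.

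Cdkn1a, the member with the miR-379-5p seed match, was lower in AGO2-IP from cells that lack the microRNA. It stood at 32.3 and 39.9 CPM in WT and at 24.8 and 20.6 CPM in miR-379KO, without overlap (−0.67 ± 0.23, edgeR adjusted p = 0.033). Its total RNA difference was 0.27 ± 0.26 (edgeR adjusted p = 0.9997). The difference between the AGO2-IP and the total RNA change was −1.15 ± 0.41 and did not pass (edgeR adjusted p = 0.256). Of the 9 members called lower, Cdkn1a had the smallest decrease, and DESeq2 called 0 members lower. Cdkn1a had a mean over 1000 counts in total RNA, where 26% of all genes were called lower. The share of all genes with the seed match that were called lower was not computed, so a part of the match in this decrease was not tested. Of the members with the miR-379-3p match, Bub1b was lower (−0.68 ± 0.26, edgeR adjusted p = 0.047) and Top2a was not called (WT values of 24.5 and 31.2 CPM against 17.5 and 25.8 CPM, −0.36 ± 0.24).

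The other members named by the rule were not called in AGO2-IP. Rrm2 had 6.27 and 11.6 CPM in WT and 4.58 and 8.06 CPM in miR-379KO, and Pcna had 5.58 and 10.8 CPM and 3.64 and 7.16 CPM. Mcm2 had 5.97 and 6.59 CPM in WT and 3.17 and 5.76 CPM in miR-379KO, and Mcm5 had 3.82 and 4.05 CPM and 2.58 and 4.99 CPM. All 4 of these replication genes were lowest in miR-379KO A. Cdk1 had 5.68 and 8.44 CPM in WT and 3.17 and 6.39 CPM in miR-379KO, and Ccnb1 had 8.81 and 7.98 CPM and 4.46 and 7.03 CPM. Ccnd1 had 8.13 and 24.1 CPM in WT and 13.1 and 18.7 CPM in miR-379KO, Cdkn2a had 3.04 and 2.89 CPM and 2.11 and 2.05 CPM, and Cdkn2b had 3.33 and 3.7 CPM and 3.4 and 2.05 CPM. Upward, the checkpoint kinase Bub1 had 5.78 and 5.09 CPM in WT and 7.04 and 9.98 CPM in miR-379KO (0.64 ± 0.26, edgeR adjusted p = 0.068), and cyclin E2 (Ccne2), with 27 and 32 counts against 26 and 41, had 0.39 ± 0.34 (edgeR adjusted p = 0.397). Offset for GC content and exon length, both turned below 0, to −0.10 and −0.76.

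The share of members called lower was close to that of other genes of like abundance. Where total RNA held a mean above 1000 counts, 26% of 3651 genes were called lower (median log2 difference of −0.45), and 7 of 24 members in that range (29.2%) were, with a median of −0.55. Between 100 and 1000 counts 5.13% of 5951 genes and 2 of 20 members (10%) were lower. Under 100 counts, where no member lay, 66.7% of 3898 genes were called higher. The calls thus moved with abundance in all genes, and its part in the members' decrease was not tested. In DESeq2 the adjusted p was 0.0516 for Plk1 and 0.0606 for Cdc20. The 9 decreases were 0 of 27 tested with a minimum mean of 50 counts and 18 without a filter. Without WT B there were 5, without miR-379KO A 4, and without miR-379KO B 6, and Cdc20 lost its call without miR-379KO B (edgeR adjusted p = 0.0547) and Kif20a without WT A or either miR-379KO library (edgeR adjusted p = 0.0621 to 0.1003).

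**Figure D3:**
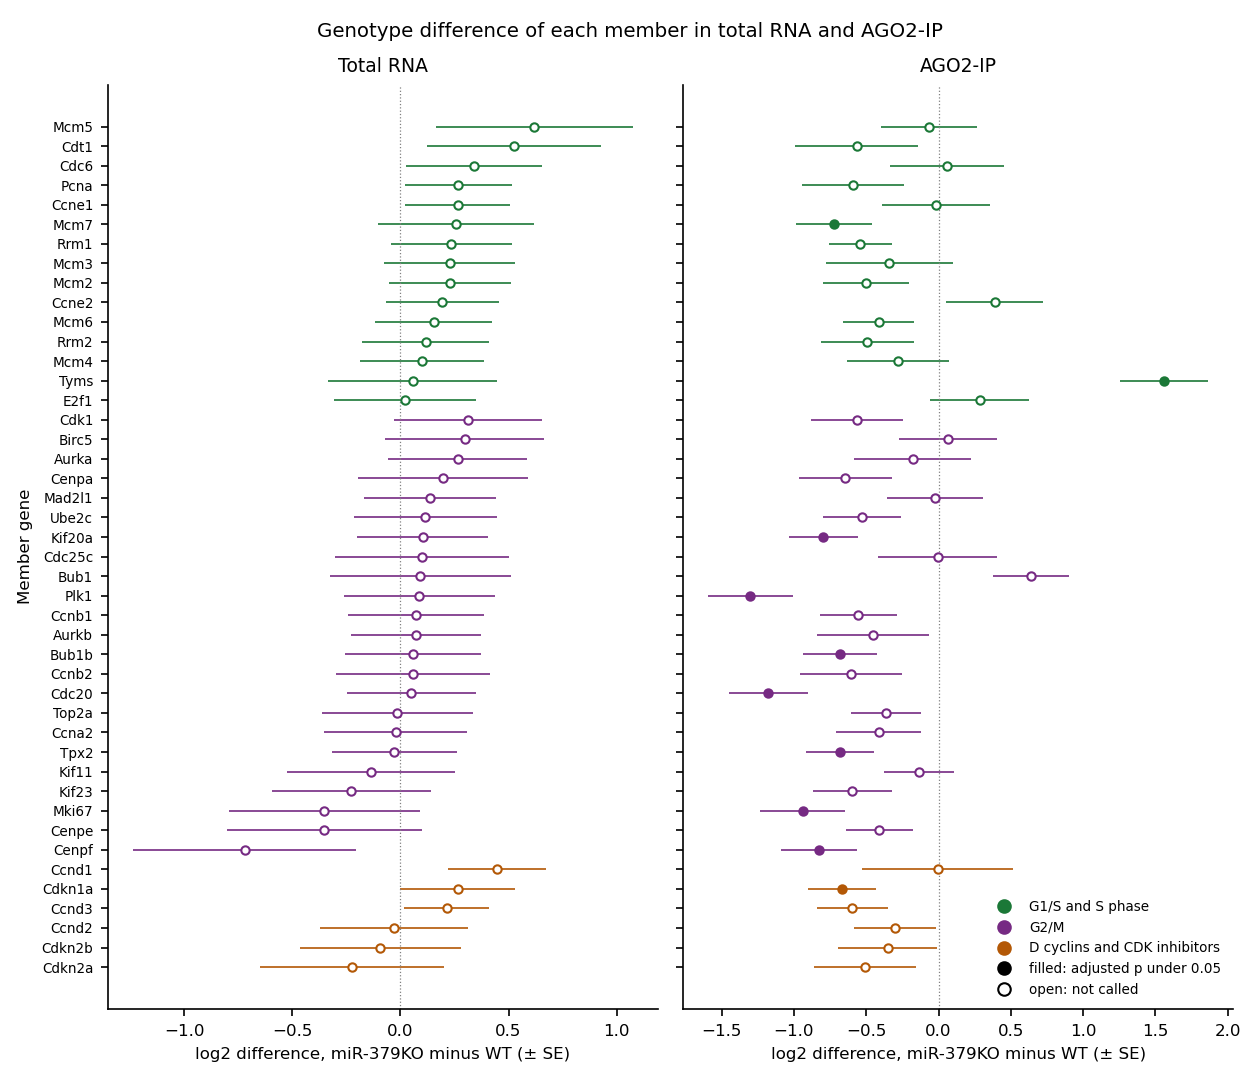
Log2 difference of miR-379KO from WT (± SE) for each of the 44 members in total RNA (left) and AGO2-IP (right), with filled points for an edgeR adjusted p under 0.05. In total RNA no point is filled and all 15 S phase genes lie right of 0, and in AGO2-IP 9 filled points lie left of 0 and Tyms alone is filled on the right.

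Cell cycle transcripts stood less far above background in miR-379KO AGO2-IP, where the background itself was higher. The same multiple was not computed for other expressed genes, so whether this was particular to the members was not tested. The background was taken from 4804 autosomal protein-coding genes without counts in total RNA, which held 1.4 and 0.945 counts per kilobase in WT AGO2-IP and 3.19 and 3.63 in miR-379KO. The median member held 18.3 and 23.8 times this level in WT A and B, compared to 4.12 and 4.55 times in miR-379KO A and B. Under 5 times the level were 1 of 44 members in each WT library, and 29 and 25 in miR-379KO. Cdc6, which loads the helicase with Cdt1, was the lowest, at 0.811 times the level in miR-379KO A and 1.26 times in miR-379KO B, so it could not be told from background there. When the background was subtracted, the median difference of G2/M genes was −0.86, beside −0.51 for all genes.

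**Figure D4:**
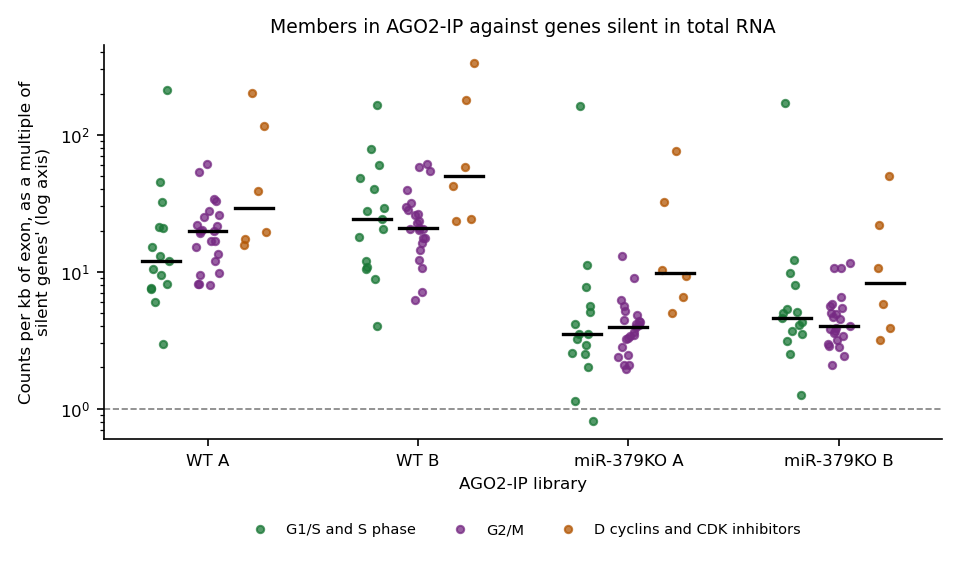
Counts per kilobase of exon of each member in the 4 AGO2-IP libraries, as a multiple of the level of genes silent in total RNA (log axis; dashed line at 1), with black bars for group medians. Medians lie at 18.3 and 23.8 times the silent level in WT and at 4.12 and 4.55 times in miR-379KO, while the top S phase point, Tyms, lies between 161 and 211 times in all 4 libraries.

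The interaction compared the change in AGO2-IP with the change in total RNA in all 8 libraries. Over all 17421 genes 0 passed in edgeR (0%), where 2731 had an unadjusted p under 0.05, and 0 members did. At an unadjusted p under 0.05 11 members had a lower and 1 a higher AGO2-IP change, and 10.9% of all genes had a lower one. The share among genes of like abundance was not computed. With a mean of at least 50 counts, 3 members and 1033 of 10198 genes had an unadjusted edgeR p under 0.05 in either direction. Plk1 (−1.59 ± 0.46), Cdc20 (−1.43 ± 0.41) and Kif20a (−1.10 ± 0.39) had the smallest p downward (edgeR adjusted p = 0.236, 0.236 and 0.256), and Tyms (1.33 ± 0.52, edgeR adjusted p = 0.267), Bub1 (0.33 ± 0.47) and E2f1 (0.03 ± 0.48) upward. Medians were −0.78 for S phase, −0.74 for G2/M and −0.59 for cyclins and inhibitors. Leaving out WT total RNA B gave 6 lower members, Plk1, Cdc20 and Kif20a among them. DESeq2 called 1 member higher, Tyms (1.56, DESeq2 adjusted p = 0.042).

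Other cell cycle genes were also tested in AGO2-IP. Over all 13500 genes tested, 9.42% were called lower and 21.4% higher. The share among genes of like abundance was not computed for these lists. Of 32 other G2/M genes 6 were lower and 3 higher (median −0.32), and of 31 other S phase genes 0 were lower and 3 higher (median 0.13). Anln, a scaffold of the contractile ring (−0.86 ± 0.23, edgeR adjusted p = 0.0075), and Gtse1 (−0.87 ± 0.25, edgeR adjusted p = 0.013) were lower, and Ttk, a spindle checkpoint kinase (1.23 ± 0.35, edgeR adjusted p = 0.010), and Hjurp, a chaperone of Cenpa (0.86 ± 0.31, edgeR adjusted p = 0.040), were higher. In S phase Wdr76 (1.16 ± 0.35, edgeR adjusted p = 0.016) and Dscc1 (1.58 ± 0.49, edgeR adjusted p = 0.018) were higher, whereas Gins2 (−0.67 ± 0.47) and Uhrf1 (−0.45 ± 0.32) were not called. G1 regulators had 1 higher and 4 lower of 22 tested, with Rbl1 (p107, 0.80 ± 0.25) higher, Foxm1 (an activator of mitotic genes, −0.94 ± 0.30) and E2f4 (−0.85 ± 0.30) lower and Rb1 (0.63 ± 0.24) not called. Of p53 targets 5 of 15 were lower and 0 higher, Btg2 (−0.87 ± 0.23) and Sesn2 (−0.89 ± 0.24) among them, and Eda2r (0.12 ± 0.22) and Sesn1 (0.14 ± 0.36) were not called. The difference between the lists was not tested.

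Recovery in AGO2-IP relative to total RNA was at least 2-fold lower for 28 of 44 members in miR-379KO and for 6 in WT, and Tyms was higher in both genotypes. These counts do not test a difference between the genotypes. The interaction, which does, called 0 members and 0 of 17421 genes in edgeR. Recovery was fitted with 1 set of TMM factors over all 8 libraries, so it is not the ratio of the CPM given above. Mki67, for example, had a mean of 201 CPM in WT total RNA and 70.4 CPM in WT AGO2-IP and a fitted recovery above 0. Assay and library protocol changed together in this comparison, so the 2 cannot be told apart. In WT 6 members were at least 2-fold lower in AGO2-IP (Cdkn1a, Cdkn2a, Cdkn2b, Ccnd1, Rrm2 and Mad2l1) and 2 at least 2-fold higher (Tyms and Mki67), beside 7.31% and 35.7% of all genes. In miR-379KO 28 were lower and 1 higher (Tyms), beside 19.3% and 41.6%. These shares of all genes include genes with few counts in total RNA, and the share among genes of like abundance was not computed. With a mean of at least 50 counts 18 members were lower in miR-379KO. The median recovery over all genes was then −0.034, compared to 0.475 in the main fit. By group there were 9 of 15 S phase, 13 of 23 G2/M and 6 of 6 cyclin and inhibitor genes lower in miR-379KO, with medians of −1.34, −1.09 and −1.68, compared to −0.57, −0.53 and −1.04 in WT. The count of 6 in WT was 17 without WT AGO2-IP B, 16 without either miR-379KO AGO2-IP library and 3 without WT total RNA B.

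Cdkn1a had the smallest p among members lower in AGO2-IP in both genotypes, at −1.23 ± 0.29 in WT and −2.37 ± 0.30 in miR-379KO (edgeR adjusted p = 0.0021 and 3.06e-06). Mad2l1, a checkpoint protein with 3.43 and 2.78 CPM in WT AGO2-IP and 2.7 and 3.45 CPM in miR-379KO, was at −1.14 ± 0.30 in WT, and Rrm2 at −1.12 ± 0.32 (edgeR adjusted p = 0.0049 and 0.0087). In miR-379KO Cdc20 (−2.21 ± 0.31) and Rrm1, the large subunit of ribonucleotide reductase (−1.79 ± 0.27), came next (edgeR adjusted p = 6.8e-06 and 1.48e-05). In the other direction Tyms led in both genotypes, as given below. The long transcripts Mki67, Cenpf and Cenpe followed, and of these only Mki67 in WT was called. Mki67 was at 1.01 ± 0.39 in WT (edgeR adjusted p = 0.043, and 0.0658 with the replicate block, lost as well in DESeq2, voom and 7 of 8 omissions of a library) and 0.18 ± 0.39 in miR-379KO, Cenpf at 1.20 ± 0.46 in WT (edgeR adjusted p = 0.054) and 0.84 ± 0.47 in miR-379KO, and Cenpe at 0.55 ± 0.34 and 0.25 ± 0.34. Offset for GC content and exon length, Mki67 was at 0.78 in WT and no longer called, and Cenpf and Cenpe turned to −0.69 and −0.93 in miR-379KO. Over the 44 members the recovery had a Spearman rho of 0.35 with exon length in WT and 0.38 in miR-379KO.

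Tyms, the enzyme that makes thymidylate, stood apart from every other member. Total RNA held 369 and 679 Tyms counts (WT) and 491 and 686 (miR-379KO), which were 22 and 37.2 CPM and 21.4 and 40.3 CPM. With AGO2 its counts were 1124 and 598 (WT) and 1956 and 2342 (miR-379KO), or 110 and 69.2 CPM and 229.6 and 299.5 CPM. Within AGO2-IP both miR-379KO libraries lay above both WT libraries, while the total RNA values overlapped. The log2 recovery was 4.06 ± 0.41 in WT and 5.39 ± 0.44 in miR-379KO (edgeR adjusted p = 2.39e-06 and 9.72e-08), and the genotype difference within AGO2-IP was 1.56 ± 0.30 (edgeR adjusted p = 0.0010), against 0.06 ± 0.39 in total RNA. These calls held in each alternative and without each replicate. As a multiple of the silent-gene level, which was higher in miR-379KO, Tyms stood at 211 and 166 in WT and at 161 and 169 in miR-379KO. The part of that background in the increase of Tyms was not tested. Of its 3808 exon bases (chr5:30038546-30073645, − strand, GRCm38.p6) 41.6% lie in repeats that the reference soft-masks, the highest share of the members. A pseudogene, Tyms-ps, is annotated as well, so reads shared with a copy were left out and the counts are uncertain, as for Ccnb1, Ccnb2, Ccnd3 and Pcna, which also have annotated pseudogenes. Where within Tyms the reads lie was not analysed here.

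**Figure D5:**
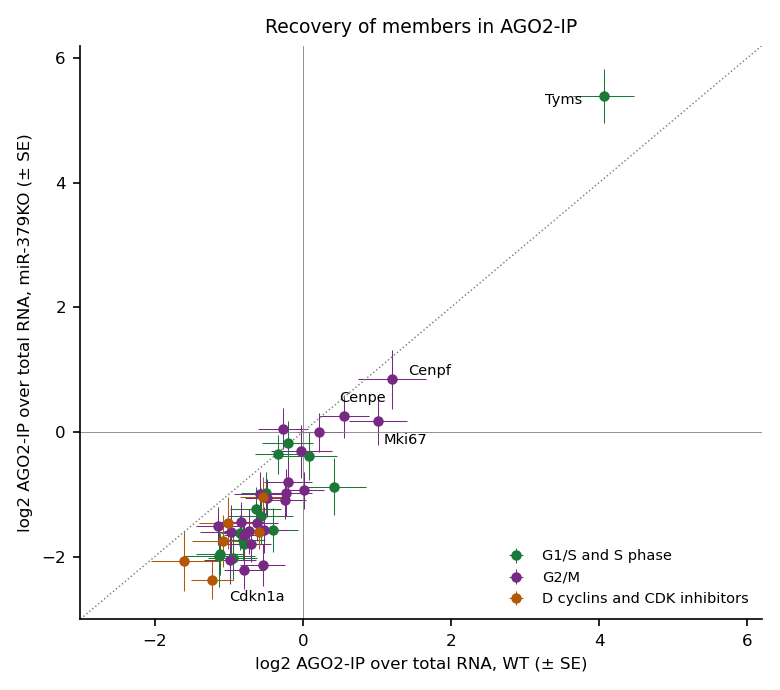
Log2 ratio of AGO2-IP over total RNA for each member in miR-379KO (vertical axis) against WT (horizontal axis), both ± SE, with the dotted line marking equal values. Most members lie below 0 on both axes and below the line, Mki67, Cenpf and Cenpe lie right of 0, and Tyms lies alone at 4.06 and 5.39.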

How the data were processed

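Total RNA and AGO2-IP libraries of WT and miR-379KO MMC were analysed from the raw read counts per gene that the authors deposited for each sample. Per the study's methods, a stranded poly(A) kit was used for total RNA, whereas AGO2-IP came from cells cross-linked with UV, then sonicated, and went into a small RNA type library. Per the submitters' processing notes, reads were aligned to mm10 with TopHat and Bowtie2 and counted with HTSeq 0.6.0, which leaves out reads without a unique position. Counting used strand. Here 20 entries that name no gene were dropped (at most 0.00209% of gene counts in a library), and symbols were matched to RefSeq of GRCm38.p6 (98.8% matched) for coordinates, exon length, GC content and 3′-UTR.

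Genes were tested over the whole table in edgeR 4.0.16 (R 4.3.3) with the quasi-likelihood F test (two-sided, robust) after filterByExpr (minimum count of 10) and TMM scaling, and called at a Benjamini-Hochberg adjusted p under 0.05. CPM used TMM factors of each assay. Genotypes were compared in the 4 libraries of an assay, and the interaction and the recovery (also at least 2-fold) in all 8. Scripts were tested on simulated data. Replicates differed by more than counting noise in each group (chi-square per degree of freedom of 3.51 to 119).

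The 44 members, the other lists and the alternatives were chosen with earlier results of these data known. The rule named 12 members fixed in advance, up to 3 members per direction and comparison with the smallest p, and up to 3 per group whose replicates differed most. Library values were given for most of these, but not in both assays for each. Of each other list, up to 2 genes per direction were named. Alternatives were DESeq2 1.42.0, voom in limma 3.58.1, no filter, RLE scaling, TMM from all but the 20 most abundant genes, a minimum mean of 50 counts, a GC content and length offset (lowess span of 0.3), the letter as a replicate block, and omission of each replicate, and for single comparisons the study's cutoff, 1 fit of all 8 libraries and subtraction of the silent-gene level. Same-letter deviations correlated at −0.11 in total RNA, so the crossed pairing was added after the data were seen.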

Additional observations from a re-analysis of the deposited data

How the results depend on the processing

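In total RNA 0 members were called under all 12 alternatives. Among all genes 41 were called higher and 43 lower at the study's cutoff, which uses an unadjusted p. When each replicate was left out, the median difference of G2/M genes ran from −0.48 to 0.47, Mcm5 from −0.20 to 1.17, Cdt1 from −0.155 to 1.02, Cenpf from −1.30 to 0.27, Mki67 from −0.83 to 0.31 (0.04 without miR-379KO A) and Cenpe from −0.83 to 0.36 (0.03 without miR-379KO A). In AGO2-IP the members called lower were 0 in DESeq2, 0 with a mean of at least 50 counts (fewer genes tested), 18 without a filter, 15 with the replicate block and the GC content and length offset, and 2 with all 8 libraries in 1 fit, while omission of a replicate gave 4 to 11. Members called higher were 2 at the study's cutoff and 1 to 2 with omission. The G2/M median was −0.18 with a mean of at least 50 counts, −0.86 with the silent-gene level subtracted and −0.85 to −0.26 with omission. Bub1 and Ccne2 turned to −0.10 and −0.76 with the offset and to −0.11 and −0.78 with the offset and the block, and with omission Ccne2 ran from −0.066 to 0.66. Over alternatives, all genes called higher in AGO2-IP ran from 234 to 3520 and lower from 40 to 2379. Where an alternative changed a call and did not change the genes or samples fitted, the cause was not tested.

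For the interaction, DESeq2 called 1 member higher, and 4 were lower with the block and offset. The G2/M median was −0.33 with a mean of at least 50 counts. With omission 0 to 6 members were lower, the S phase median ran from −1.11 to −0.16, the G2/M median from −1.06 to −0.16, Bub1 from −0.14 to 0.94 and E2f1 from −0.40 to 0.71 (−0.02 and −0.24 without miR-379KO total RNA B and AGO2-IP B). E2f1 was −0.057 in voom and −0.084 without a filter, and Bub1 was −0.50 with the offset and −0.48 with the offset and the block. The median over all genes moved from 0.01 to 0.28 (0.285 in DESeq2), and to 0.36 (from −0.01) in the AGO2-IP comparison without a filter, which moves the members along. For WT recovery, 1 member was higher with RLE factors, a mean of at least 50 counts, the block, the offset, and both. A mean of at least 50 counts gave 3 lower and a G2/M median of −0.41. With omission 1 to 4 were higher and 3 to 17 lower, and the medians ran from −1.19 to −0.42 (S phase) and from −0.78 to −0.44 (G2/M). For miR-379KO recovery, DESeq2 called 2 higher, and a mean of at least 50 counts gave 18 lower and a G2/M median of −0.57. Cenpf turned to −0.69 with the offset (−0.692 with the block as well), and Cenpe to −0.93 (−0.92 with the block), and with omission Cenpe ran from −0.13 to 0.62 (−0.035 without miR-379KO AGO2-IP B).

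Between the genotypes, deviations of same-letter libraries correlated at −0.11 in total RNA (10762 genes) and 0.04 in AGO2-IP (4971 genes), so the letters were not taken to pair them. Between the assays they correlated at 0.21 in WT (10107 genes) and 0.17 in miR-379KO (10292 genes), so a letter may tie total RNA to AGO2-IP, which the labels do not state. With the letter as a replicate block 0 members were called in total RNA (medians of 0.20 and 0.00), 7 instead of 9 were lower and 1 higher in AGO2-IP, and 1 instead of 2 were higher in WT recovery, where Mki67 was 0.99 (edgeR adjusted p = 0.0658) and 7 instead of 6 were lower. The 28 lower and 1 higher of miR-379KO recovery and the 0 of the interaction kept their counts. With the letters crossed, a pairing added after the data were seen, 0 members were called in total RNA. About 70 counts per member in WT AGO2-IP and fewer in miR-379KO limit what could be detected there.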
